A study of Mus musculus with 9 samples.

Results

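RNA was measured for the proteasome, the protease that degrades ubiquitin-tagged proteins, in hearts of mouse embryos at E10.5 in which *Ctcf* was deleted. The members were every gene whose symbol is Psm followed by one letter from a to f and a number, and 41 of the 14011 genes in the deposited expression table met this rule. The genome annotation holds 44 such names, and the remaining 3 (*Psmb8*, *Psmb9* and *Psmb11*) are not analysed here because they had no row in the table. By their known roles, 14 members encode the constitutive core, 20 the regulatory particle or its chaperones, 4 the activators of the core and 1 (*Psmf1*) an inhibitor, and the other two are *Psmb10* and *Psma8*, which replace a core subunit in specialised proteasomes. In homozygous hearts 13 of the 41 members were called higher than in controls (limma, adjusted p under 0.05), where 7.19% of all genes were. Of these 13, 10 belonged to the core, and 0 members were called lower, where 8.03% of all genes were. Most members are short, and short genes were higher in homozygotes across the whole table. With the trend of protein-coding transcript length removed, 3 members were called higher, 2 of them in the core, where 5.19% of all genes were.

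The proteasome is a barrel that is closed or opened by a cap. The barrel, or core particle, is made of outer alpha rings, which gate the entrance, and inner beta rings, whose subunits PSMB5, PSMB6 and PSMB7 cut the protein chain. The cap, or regulatory particle, has a base of ATPases (PSMC1 to PSMC6) that unfold the substrate and a lid that removes ubiquitin. Immune cells and interferon-treated cells can exchange the cutting subunits for immunoproteasome forms such as PSMB10, and the alpha subunit PSMA8 is known from the testis. Heart muscle depends on the proteasome to renew damaged and sarcomeric proteins, and subunit genes are known to be raised together by the transcription factor NFE2L1 when proteasome activity falls.

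CTCF is a DNA-binding protein that organises chromatin loops. The study compared 3 genotypes of mixed strain with 3 libraries each, and each library was made from polyA RNA of a pool of 6 hearts, so the pool is the replicate (n = 3). Homozygotes were *Ctcf* fl/fl; *Nkx2.5-Cre/+* and heterozygotes *Ctcf* fl/+; *Nkx2.5-Cre/+*, while controls carried no Cre and are *Ctcf* fl/fl by the labels but *Ctcf* fl/+ by the methods of the study. *Nkx2.5-Cre* acts in cardiac progenitors and their muscle descendants, so cells without Cre activity keep *Ctcf*, which the study reports for endocardium, and because controls lack the driver, a difference from controls includes any effect of the driver. The embryos' sex was not given, and the p-values measure the spread between pools. Libraries are named by genotype and by the number that ends their column name, which does not tie a column to one deposited control or heterozygous sample.

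Expression is given as the deposited normalised value, which is the reads of a gene plus 0.5, scaled to an effective library size, that is, the total reads times a factor (0.955 to 1.03, the TMM factor of edgeR). Libraries held between 4294537 and 11629365 reads, and every member apart from *Psma8* had at least 64 reads in each library, whereas *Psma8* fell to 7 reads in its lowest library. *Ctcf*, the deleted gene, had a mean normalised value of 121 (SD 0.837, n = 3) in the controls, of 97.3 (SD 3.26) in the heterozygotes and of 81.4 (SD 2.85) in the homozygotes, with no overlap between the groups. The *Ctcf* value covers the whole gene, and deleted and retained exons were not separated. Markers of heart muscle, endothelium, epicardium and cushion mesenchyme were all detected. Because hearts were measured in bulk, a higher level per cell and a larger share of cells with that level cannot be told apart, and fewer cells of a type and less RNA per cell cannot be told apart either.

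The first question was which proteasome genes changed when both *Ctcf* alleles were deleted. Of the 41 members, 13 were called higher in homozygotes than in controls (limma, adjusted p under 0.05 over all genes), where 7.19% of all 14011 genes were called higher, and 0 were called lower, where 8.03% of all genes were. Over the members the log2 fold changes had a median of 0.13, and over all genes one of -0.00, and 39 of the 41 were positive, as were 49.9% over all genes. At an unadjusted p under 0.05, 19 members were higher, as were 14.5% of all genes. In 25 members all 3 homozygous libraries lay above all 3 control libraries, a separation seen in 16.6% of all genes, and in 1 member (*Psma8*) they lay below, as in 16.5% of all genes. The core contributed 10 calls from 14 genes with a median of 0.21, the regulatory particle 3 calls from 20 genes with a median of 0.10, and the activators 0 calls from 4 genes with a median of 0.09. With the trend of protein-coding transcript length removed, as described further on, the core kept 2 calls with a median of 0.07, the regulatory particle 1 with a median of 0.06, and the activators had a median of 0.06. The difference between core and cap was not tested. The number of calls moved with the libraries and the model used: it was 3 without control library 3, 5 without homozygous library 3, 7 without control library 2 and 8 without homozygous library 2, and it was 3 after a correction for transcript length described further on. The share of all genes called higher fell in these fits as well, to 3.73%, 4.2%, 5.47% and 5.55% when those libraries were left out in that order. The activator median ran from 0.04 without homozygous library 3 to 0.15 without homozygous library 1, and was 0.05 without control library 3.

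**Figure D1:**
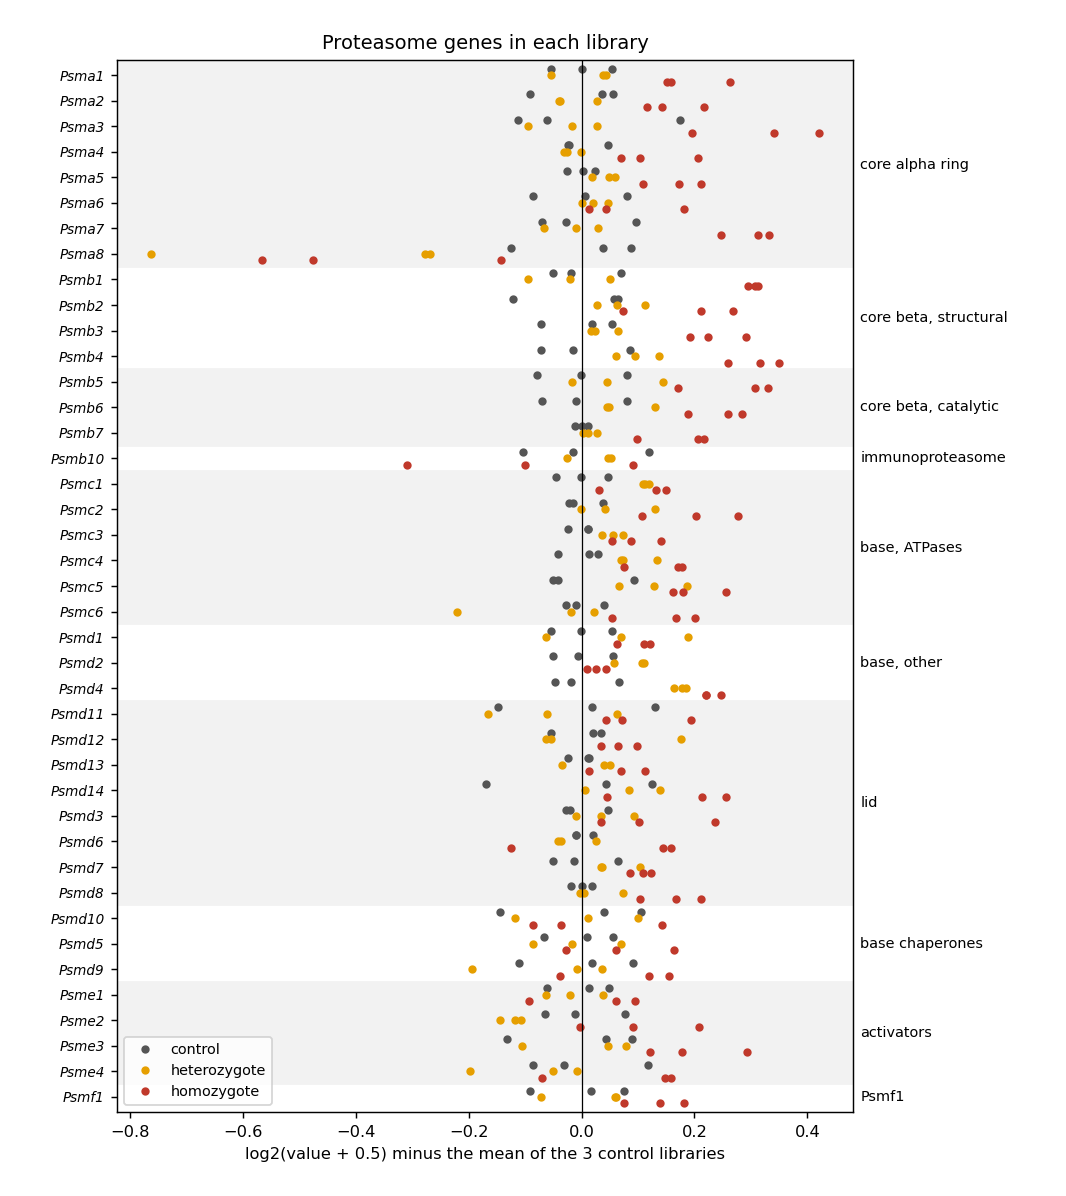
Each point is 1 library, plotted as log2(normalised value + 0.5) minus the mean of the 3 control libraries (horizontal axis, log2 units), for the 41 proteasome genes (rows) grouped by role. Homozygous libraries (red) lay to the right of the control libraries (grey) without overlap in 25 of 41 genes, and Psma8, with values between 1.42 and 2.97, spread most widely.

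The promoters of the members were read for short patterns of factors known to act on proteasome or housekeeping genes, and of CTCF, and the patterns and the genes shown were chosen after the values were seen. RefSeq windows from 250 bases before to 50 bases after the start of a gene (mouse build GRCm38.p6) were at hand for 34 of the 41 members, 11 of them among the 13 called higher, and each pattern was searched on both strands. The antioxidant response element, written here as TGACNNNGC and bound by the NFE2L factors, occurred in 6 of the 34 windows (17.6%) and in 17.2% of the windows of 9579 tested genes. Among genes called higher it lay in *Psmb5* and *Psmb6*, which encode cutting subunits. The consensus of nuclear respiratory factor 1 occurred in 4 of 34 members (11.8%) and 3.18% of tested genes, and among genes called higher it lay in *Psma3*. A core of the CTCF consensus was found in 1 of 34 members (2.94%, *Psmc4*) and 0.877% of tested genes, and in 0 of the 11 members called higher. With the ambiguous letters of both consensus patterns left free, and the outer letters of the first dropped, the shares were 17.6% against 11.1% for nuclear respiratory factor 1 and 2.94% against 3.47% for CTCF. The 4 stretches of 80 bases are shown because they hold these matches, each 5′ to 3′ on the strand of the gene, with the match in capitals. They are from *Psmb5* (chr14:54617996-54618075, minus strand, antioxidant response element), *Psmb6* (chr11:70525277-70525356, plus strand, the same element), *Psma3* (chr12:70974514-70974593, plus strand, nuclear respiratory factor 1) and *Psmc4* (chr7:28050263-28050342, minus strand, CTCF, read on the opposite strand).
Psmb5: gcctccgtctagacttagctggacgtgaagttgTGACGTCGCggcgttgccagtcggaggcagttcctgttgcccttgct
Psmb6: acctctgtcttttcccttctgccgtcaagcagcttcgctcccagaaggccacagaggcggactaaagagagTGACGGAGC
Psma3: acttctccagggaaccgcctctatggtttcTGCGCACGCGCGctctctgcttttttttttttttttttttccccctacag
Psmc4: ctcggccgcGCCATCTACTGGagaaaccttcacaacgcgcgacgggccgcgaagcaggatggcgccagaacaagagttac
The matches begin 47 bases before the start of *Psmb5*, 9 before that of *Psmb6*, 79 before that of *Psma3* and 241 before that of *Psmc4*. A match of letters is a description and not a bound site, and no binding was measured in these files.

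All 3 cutting subunits were called higher in homozygotes than in controls. *Psmb5*, which cuts after hydrophobic residues, had normalised values of 117, 131 and 124 in control libraries 1 to 3, 137, 127 and 122 in heterozygous libraries 1 to 3 and 155, 139 and 153 in homozygous libraries 1 to 3. The homozygous libraries were the 3 highest of the 9, and the log2 fold change against controls was 0.27 (SE 0.07, limma adjusted p = 0.0159). *Psmb6*, which cuts after acidic residues, measured 180, 169 and 162 in controls, 186, 175 and 176 in heterozygotes and 204, 194 and 207 in homozygotes. Its homozygous values again exceeded all others, with a log2 fold change of 0.24 against controls (SE 0.06, limma adjusted p = 0.0123). *Psmb7*, which cuts after basic residues, measured 221, 217 and 219 in controls, 223, 219 and 220 in heterozygotes and 234, 252 and 254 in homozygotes. Control and heterozygous libraries of *Psmb7* spanned only 217 to 223, every homozygous library lay above them, and the rise of 12.9% against controls was called (log2 fold change 0.17, SE 0.05, limma adjusted p = 0.0373). None of the 3 cutting subunits was called without control library 3, and only *Psmb6* was called without homozygous library 3. With the trend of transcript length described further on removed by protein-coding transcript, none of the 3 was called, at log2 fold changes of 0.10 for *Psmb5* (limma adjusted p = 0.354), 0.06 for *Psmb6* (0.576) and 0.06 for *Psmb7* (0.567). With exonic length used for that correction only *Psmb6* was called (0.19, limma adjusted p = 0.0349), and *Psmb5* and *Psmb7* were at 0.10 and 0.06.

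Of the 4 other beta subunits, which build the inner rings without cutting, 3 were called higher. *Psmb1* had normalised values of 174, 185 and 170 in controls, 182, 173 and 165 in heterozygotes and 218, 216 and 218 in homozygotes. Its homozygous libraries had an SD of 1.31 around their mean of 217 and lay above the other 6 libraries, and its log2 fold change against controls was 0.31 (SE 0.06, limma adjusted p = 0.00333). *Psmb4* measured 160, 171 and 153 in controls, 177, 172 and 168 in heterozygotes and 206, 193 and 201 in homozygotes. Heterozygous and control values of *Psmb4* overlapped while the homozygous values lay above both, and the log2 fold change against controls was 0.31 (SE 0.06, limma adjusted p = 0.0034). *Psmb3* measured 127, 130 and 119 in controls, 127, 131 and 127 in heterozygotes and 143, 146 and 153 in homozygotes, so that homozygotes did not overlap the other groups (log2 fold change 0.24 against controls, SE 0.06, limma adjusted p = 0.0131). *Psmb2* was not called, at 101 ± 7.19 in controls and 115 ± 7.9 in homozygotes (log2 fold change 0.18, limma adjusted p = 0.0913), although its homozygous libraries all lay above the controls. *Psmb1* and *Psmb4* were called with any single library left out, and *Psmb3* was lost without control library 3 or homozygous library 3. With the length trend removed, *Psmb1* was not called by either length, at log2 fold changes of 0.15 by exonic length (limma adjusted p = 0.0813) and 0.17 by protein-coding transcript (0.0611). *Psmb3* was called by exonic length (0.19, limma adjusted p = 0.0431) but not by protein-coding transcript (0.04, 0.684), and *Psmb4* was called by both (0.22 and 0.20).

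In the alpha ring, which gates the barrel, 4 of the 7 constitutive subunits were called higher. *Psma3* measured 215, 182 and 176 in controls, 194, 178 and 188 in heterozygotes and 218, 255 and 241 in homozygotes. Control library 1 came close to homozygous library 1, and the mean rise of 24.6% was the largest among the members (log2 fold change 0.32, SE 0.08, limma adjusted p = 0.016). *Psma7* measured 160, 175 and 156 in controls, 167, 162 and 156 in heterozygotes and 203, 194 and 206 in homozygotes. All homozygous libraries lay above the other 6, by a gap about as wide as the range of the controls, and the log2 fold change was 0.30 (SE 0.06, limma adjusted p = 0.00499).

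*Psma1* measured 191, 184 and 177 in controls, 189, 177 and 190 in heterozygotes and 205, 206 and 221 in homozygotes. Homozygous libraries lay above the rest and the log2 fold change against controls was 0.19 (SE 0.06, limma adjusted p = 0.0373). *Psma5* measured 149, 151 and 146 in controls, 154, 155 and 151 in heterozygotes and 161, 173 and 168 in homozygotes, a rise of 12.2% that was just called (limma adjusted p = 0.0482). *Psma2* (limma adjusted p = 0.0857), *Psma4* (0.137) and *Psma6* (0.442) were not called, with log2 fold changes of 0.16, 0.13 and 0.08. The threshold therefore ran between *Psma5*, just inside it, and the lid gene *Psmd8* (adjusted p = 0.0586), just outside. *Psma7* was called with any single library left out, while *Psma3* and *Psma1* were lost without control library 2 or 3 or homozygous library 2 or 3, and *Psma5* was kept only without homozygous library 1. With the length trend removed, *Psma3* was called by both lengths (log2 fold changes 0.33 and 0.31), and *Psma7* was called by exonic length (0.28, limma adjusted p = 0.00783) but not by protein-coding transcript (0.13, 0.126). *Psma1* (0.14 and 0.08) and *Psma5* (0.07 and 0.06) were called by neither.

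Neither of the specialised forms was called. *Psmb10*, the immunoproteasome form of the position that *Psmb7* fills, measured 14.6, 17.1 and 15.6 in controls, 15.5, 16.3 and 16.3 in heterozygotes and 14.7, 12.6 and 16.8 in homozygotes. The 3 groups overlapped and the log2 fold change was -0.11 (interval -0.37 to 0.16, limma adjusted p = 0.611). Per kilobase of exons, *Psmb10* reached 6.89% (SD 0.614, n = 3) of the level of *Psmb7* in control hearts, 6.94% (SD 0.272) with 1 allele deleted and 5.69% (SD 0.807) with both deleted. The homozygous ratios (5.98%, 4.78% and 6.31%) all lay below the control ratios (6.33% to 7.55%), the nearest of them by a small margin, and with 3 libraries against 3 an exact permutation test cannot reach 0.05. *Psma8*, at 2.97, 2.49 and 2.85 in controls, 1.42, 2.21 and 2.19 in heterozygotes and 1.70, 2.45 and 1.85 in homozygotes, was near the detection limit and was not called (log2 fold change -0.40, interval -0.92 to 0.12, limma adjusted p = 0.303).

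The base of the regulatory particle gave the 3 calls outside the core. Of the 6 ATPases, *Psmc2* measured 139, 139 and 145 in controls, 141, 154 and 145 in heterozygotes and 152, 171 and 162 in homozygotes, and *Psmc5* measured 148, 135 and 134 in controls, 158, 152 and 146 in heterozygotes and 157, 156 and 166 in homozygotes. For both ATPases the homozygous libraries lay above the controls but overlapped the heterozygotes. The log2 fold changes against controls were 0.20 for *Psmc2* (SE 0.06, limma adjusted p = 0.0432) and 0.20 for *Psmc5* (SE 0.06, limma adjusted p = 0.039). *Psmc1*, *Psmc3*, *Psmc4* and *Psmc6* had log2 fold changes from 0.09 to 0.14 and were not called. *Psmd4*, a ubiquitin receptor of the base, measured 114, 108 and 105 in controls, 124, 123 and 122 in heterozygotes and 127, 127 and 129 in homozygotes. Its 3 groups formed 3 separate steps, with heterozygotes nearer to homozygotes than to controls, and homozygotes differed from controls by a log2 fold change of 0.23 (SE 0.05, limma adjusted p = 0.0121). *Psmd4* was lost only without control library 3 among the leave-one-out fits, and *Psmc2* and *Psmc5* were each lost in 6 of them. With the length trend removed, *Psmd4* was called by both lengths (0.19 and 0.17), *Psmc2* by exonic length (0.24, limma adjusted p = 0.0189) but not by protein-coding transcript (0.14, 0.19), and *Psmc5* by neither (0.11 by both). The scaffold genes of the base, *Psmd1* and *Psmd2*, were not called, and *Psmd2* had the highest normalised values of the family at 345 ± 12.8 in controls and 351 ± 4.06 in homozygotes (not scaled for length).

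Neither the lid nor the chaperones held a called gene. The 8 lid genes, which include the deubiquitinase *Psmd14*, had log2 fold changes between 0.06 (*Psmd6*) and 0.17 (*Psmd14*) against controls with a median of 0.10, all of them positive, and *Psmd3*, *Psmd7*, *Psmd11*, *Psmd12* and *Psmd13* lay between 0.07 and 0.12. *Psmd8* came nearest to a call, at 143, 141 and 139 in controls and 159, 152 and 163 in homozygotes, with no overlap (log2 fold change 0.16, limma adjusted p = 0.0586). *Psmd5*, *Psmd9* and *Psmd10*, which help to assemble the base and then leave it, had log2 fold changes of 0.07, 0.08 and 0.01, and their homozygous libraries overlapped the controls.

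The alternative caps and the inhibitor were not called. *Psme1* measured 81.2, 87.7 and 85.6 in controls, 87.0, 83.6 and 81.1 in heterozygotes and 88.5, 79.5 and 90.6 in homozygotes, and its partner *Psme2* measured 58.4, 62.1 and 56.2, 54.2, 53.2 and 54.5, and 58.7, 62.7 and 68.0. Both encode parts of the interferon-inducible 11S cap, and homozygotes overlapped controls for both. *Psme3*, the nuclear 11S cap, measured 192, 186 and 165 in controls, 168, 187 and 191 in heterozygotes and 197, 204 and 221 in homozygotes. Homozygous libraries of *Psme3* lay above the others without overlap, at a log2 fold change of 0.20 (SE 0.07, limma adjusted p = 0.0849). *Psme4*, a large cap protein linked to histone turnover, measured 231, 208 and 200 in controls, 185, 205 and 211 in heterozygotes and 202, 237 and 235 in homozygotes. Its groups overlapped (log2 fold change 0.08, limma adjusted p = 0.544). *Psmf1*, which inhibits the core in vitro, measured 28.3, 27.2 and 25.2 in controls, 25.5, 28.1 and 28.0 in heterozygotes and 30.5, 28.3 and 29.7 in homozygotes, with the lowest homozygote barely above the highest control (log2 fold change 0.13, limma adjusted p = 0.331).

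**Figure D2:**
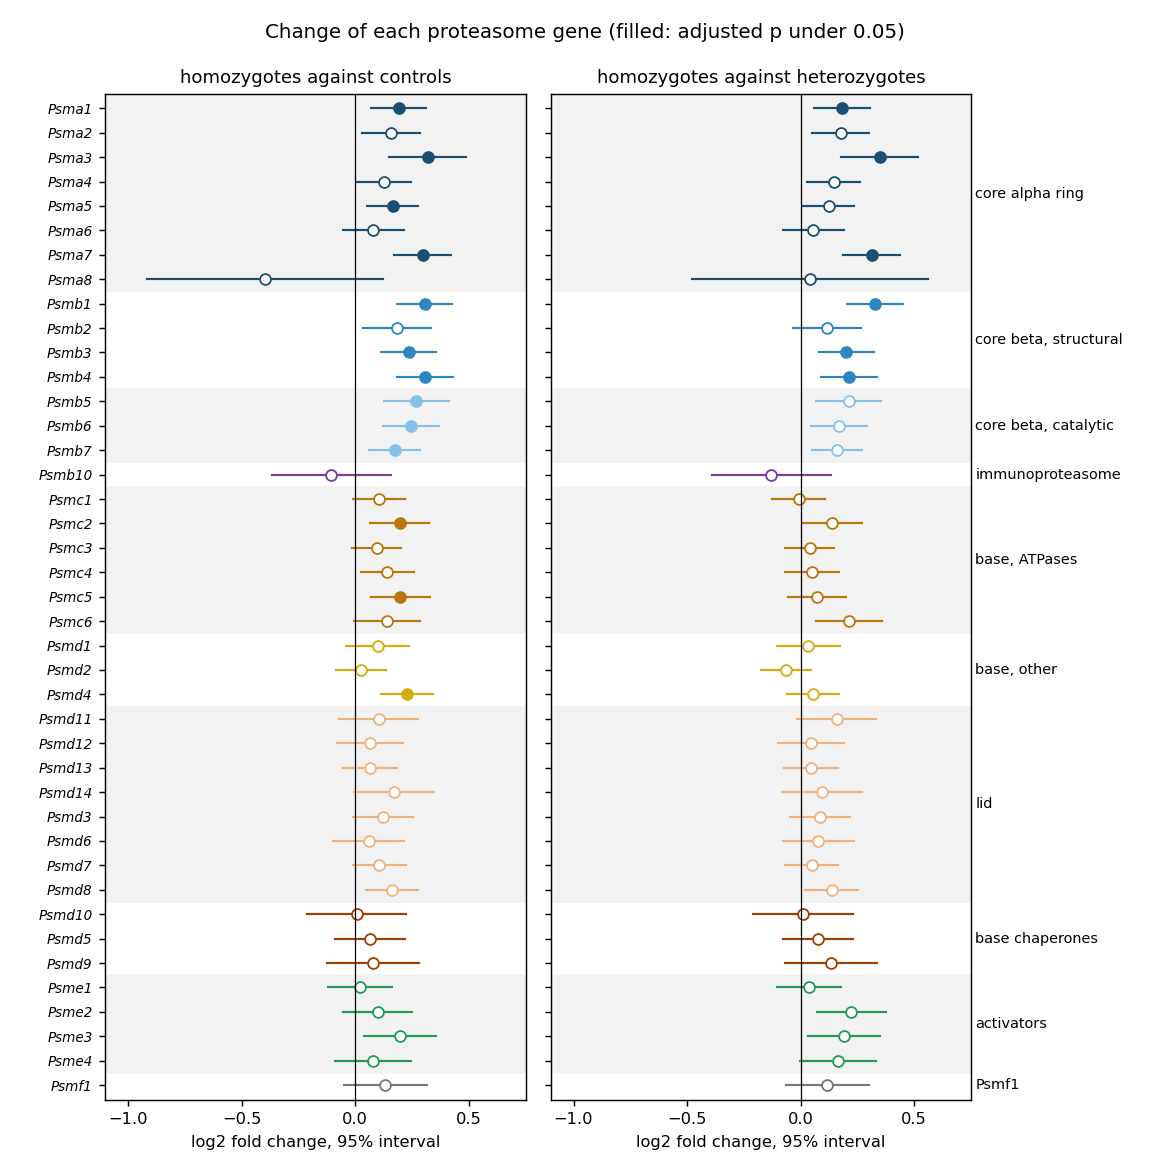
Points give the log2 fold change of each proteasome gene (rows, grouped by role) in homozygotes against controls (left) and against heterozygotes (right), and lines give the confidence interval from the limma fit. Filled points passed an adjusted p of 0.05, which 13 genes did on the left and 6 on the right, all higher in homozygotes.

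The second question was whether homozygotes differed from heterozygotes, which carry the driver and 1 intact allele. Against heterozygotes, 6 members were called higher, where 6.87% of all genes were, and 0 were called lower, where 6.7% were. The 6 genes were *Psmb1* (log2 fold change 0.33, SE 0.06, limma adjusted p = 0.00246), *Psma7* (0.31, 0.06 and 0.00398), *Psma3* (0.35, 0.08 and 0.012), *Psmb4* (0.21, 0.06 and 0.0271), *Psmb3* (0.20, 0.06 and 0.0307) and *Psma1* (0.18, 0.06 and 0.0496). All 6 encode core subunits, and 0 of the 20 genes of the regulatory particle were called. The cutting subunits lay just outside the threshold, at adjusted p of 0.0509 for *Psmb5*, 0.0675 for *Psmb6* and 0.0563 for *Psmb7*, with homozygous libraries above heterozygous ones in all 3 genes. Medians of the log2 fold change were 0.18 over the core, 0.06 over the regulatory particle and 0.18 over the activators, against 0.12 over all members and -0.00 over all genes, and 38 of the 41 members were above 0, as were 49.2% of all genes. At an unadjusted p under 0.05, 17 were higher, as were 13.6% of all genes. In 18 members the homozygous libraries lay above the heterozygous ones without overlap, as in 15.3% of all genes, and in 1 (*Psmd2*) they lay below, as in 15.5% of all genes. The 6 calls became 3 without heterozygous library 2 and 3 without homozygous library 3, where 5.1% and 3.68% of all genes were called higher. They became 10 when genes that did not reach a value of 5 in 3 or more libraries were left out of the test, where 8.76% of the genes tested were called higher. They became 2 without the limma trend (3.86% of all genes) and 3 with the library number added to the fit as a block (5.7% of all genes). With the trend of protein-coding transcript length removed, *Psma3* and *Psmb1* were still called, while *Psma7* (limma adjusted p = 0.0501), *Psmb4* (0.211), *Psmb3* (0.681) and *Psma1* (0.37) were not, and the activator *Psme4* was called (0.0459). The medians were then 0.06 over the core, 0.01 over the regulatory particle and 0.13 over the activators. Before that correction the core and the activators were both at 0.18, so the core did not stand above the activators in either fit.

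The third question was whether loss of 1 allele, together with the driver, changed the same family. Between heterozygotes and controls 0 members were called in either direction, where 0.143% of all genes were called (20 genes by limma, with 0.0928% higher and 0.05% lower). edgeR's quasi-likelihood test also called 0 members, and 1 member (*Psmd4*) had an unadjusted limma p under 0.05, a level that 7.37% of all genes reached in either direction and 3.17% on the higher side. Medians of the log2 fold change were 0.02 over the members, 0.02 over the core, 0.05 over the regulatory particle and -0.05 over the activators, of which 3 of 4 were below 0, and 26 of the 41 members were above 0, as were 50% of all genes. Without control library 3 the median was 0.0066 over the members, -0.01 over the core and -0.09 over the activators. *Psmd4* had a log2 fold change of 0.18 (SE 0.05, limma adjusted p = 0.425), with every heterozygous library above every control. Heterozygous libraries lay above the controls without overlap in 5 members (*Psmc1*, *Psmc3*, *Psmc4*, *Psmd2* and *Psmd4*), where 7.41% of all genes did so, and below in 2 members (*Psma8* and *Psme2*), where 6.93% did. These 5 genes all encode base subunits, and they were picked out here after their values were seen. For the core genes the intervals of the heterozygous difference reached at most 0.22 (*Psmb4* and *Psmb2*) in log2 units above controls.

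Summed levels gave the same order of genotypes for the core. The normalised values of the 14 core genes added up to between 2139 and 2282 in controls, 2233 and 2309 in heterozygotes and 2557 and 2679 in homozygotes. Control and heterozygous sums overlapped and homozygous sums lay above both. For the 20 genes of the regulatory particle the sums were 2722 to 2803, 2821 to 2871 and 2918 to 3024 in the same order, so that the 3 genotypes did not overlap on this scale. As a share of all values in a library, the core kept its order (0.218% to 0.232% in controls, 0.223% to 0.238% in heterozygotes and 0.246% to 0.256% in homozygotes), but the regulatory particle did not: homozygotes (0.286% to 0.289%) lay within the range of heterozygotes (0.281% to 0.295%), which overlapped controls (0.277% to 0.284%). The sums of the 4 activators (507 to 562, 495 to 538 and 546 to 615) overlapped between homozygotes and controls.

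**Figure D3:**
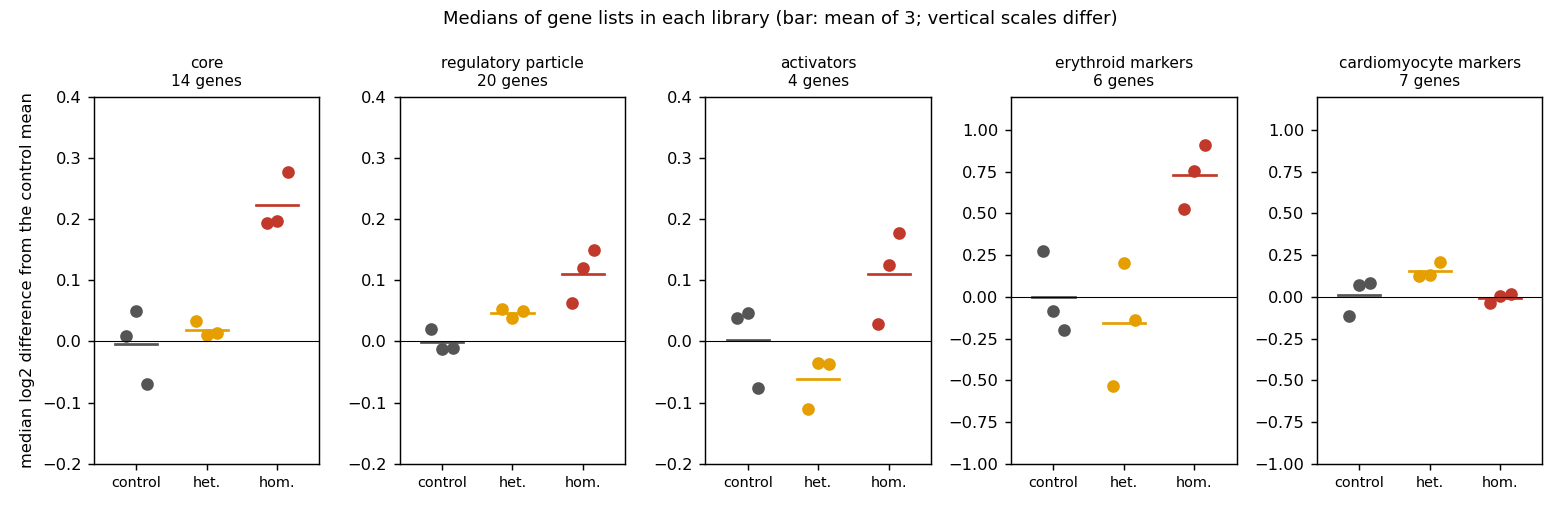
Each point is the median, over the genes of a list, of the log2 difference of 1 library from the mean of the controls (vertical axis, log2 units, with a wider scale for the marker lists), and bars are means of 3 libraries. Homozygous libraries were highest for the core (0.19 to 0.28), the regulatory particle (0.06 to 0.15) and the erythroid markers (0.53 to 0.91), and the cardiomyocyte markers of homozygotes (-0.04 to 0.02) fell within the range of controls.

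Blood markers and transcript length moved with the genotypes as well. All 6 erythroid markers were called higher in homozygotes against controls (log2 fold changes 0.61 to 0.80) and against heterozygotes (0.71 to 0.98), and their summed value took up 2.96% to 4.17% of a library in controls, 2.38% to 3.87% in heterozygotes and 5.03% to 6.38% in homozygotes. No erythroid marker was at 0 in any library. Of the cardiomyocyte markers 1 of 7 (*Nppa*) was called lower against controls and 3 of 7 (*Nppa*, *Myh6* and *Myh7*) against heterozygotes, and their summed value took up 1.65% to 1.91% in controls, 1.92% to 2.12% in heterozygotes and 1.44% to 1.73% in homozygotes. Of 5 epicardial markers 3 were called higher against controls (summed value 0.0314% to 0.0371% in controls and 0.0428% to 0.0505% in homozygotes), while 2 of 5 cushion markers were lower. Endothelial markers gave 1 call up and 1 down among 6, and 0 of 7 markers of macrophages and other blood cells were called, among which *Emr1* was at 0 reads in at least 1 library. The part of these cell types in the proteasome values was not tested.

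Genes with short transcripts were higher in homozygotes across the whole table. In 5 equal groups of genes by exonic length, from short to long, the median log2 fold change of homozygotes against controls was 0.12, 0.05, 0.01, -0.04 and -0.13, and 14.6%, 8.58%, 5.43%, 4.94% and 2.32% of genes were called higher. Most members are short: 16 lay in the shortest group, where 7 were called, and 14 in the next, where 4 were called. The longest protein-coding transcript had a median length of 1101 bases over the core, 1802 over the regulatory particle and 3062 over all genes. When the trend with exonic length was removed in each library, 7 members were called against controls, where 838 of 13987 genes were, and the core median was 0.13. When the length of the longest protein-coding transcript was used instead, a choice made after the data were seen, 3 members were called, where 726 of 13987 genes were, and the medians were 0.07 over the core and 0.06 over the regulatory particle. The 3 members were *Psma3* (log2 fold change 0.31, limma adjusted p = 0.0233), *Psmb4* (0.20, 0.0263) and *Psmd4* (0.17, 0.0477). Against heterozygotes the same correction left *Psma3* (0.34, 0.0126) and *Psmb1* (0.20, 0.0261) and added *Psme4* (0.27, 0.0459). Across the 41 members themselves, log2 transcript length and log2 fold change had a Pearson r of -0.22 by protein-coding transcript and -0.05 by exonic length, over points that share their libraries.

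**Figure D4:**
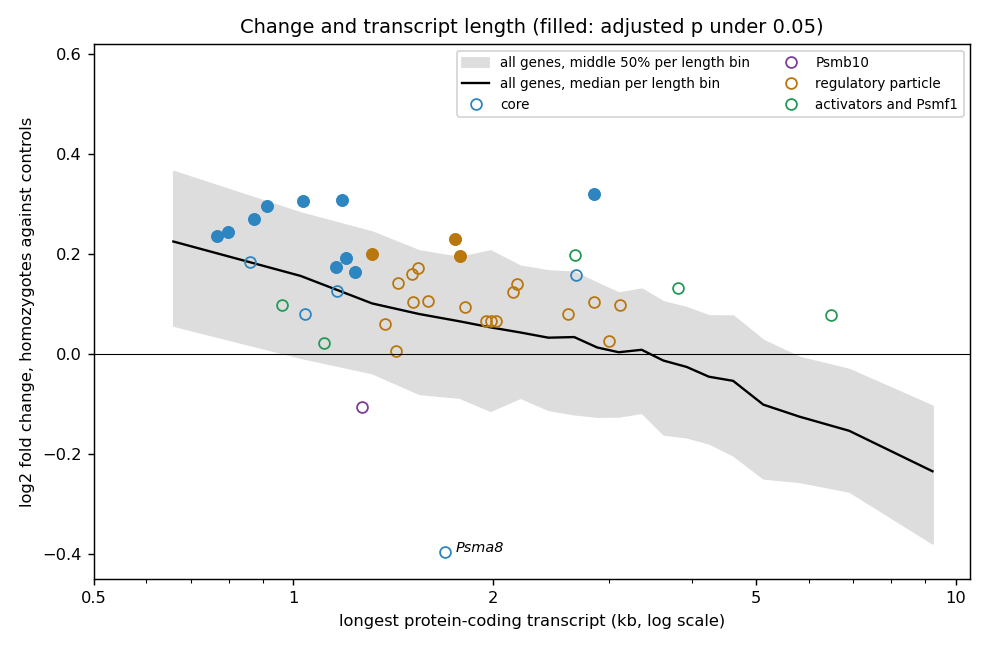
Each point is a proteasome gene, with the length of its longest protein-coding transcript (horizontal axis, kb, log scale) and its log2 fold change in homozygotes against controls (vertical axis), and filled points passed an adjusted p of 0.05. The black line and grey band give the median and the interquartile range of all genes in 20 bins of length, and the line runs from 0.22 for the shortest bin to -0.23 for the longest, with most core genes at the short end.

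Levels of different members can be compared only per length. Per kilobase of exons, *Psmb7* had the highest normalised value in controls (180 ± 1.5), followed by *Psmb1* (170 ± 7.37) and *Psmb5* (134 ± 7.47). *Psmb10* stood at 12.4 ± 1 and *Psma8* at 1.62 ± 0.145, the lowest of the family. The SD of log2 levels over the 14 core genes, whose products are built into the particle in equal numbers, was 0.62 in controls, 0.64 in heterozygotes and 0.62 in homozygotes. The order depends on the length used. *Psmb6* has 1.87 kb of exons in all but a longest protein-coding transcript of 0.798 kb, and per kilobase of the latter *Psmb6* was highest, at 213 ± 11.2 in controls and 253 ± 8.62 in homozygotes.

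Positions of the members are given on NCBIM37, the build of the table. *Psmb4* (chr3:94688015-94690883) and *Psmd4* (chr3:94836616-94846536) lie near each other and were both called higher in homozygotes against controls. *Psme1* (chr14:56196960-56200366) and *Psme2* (chr14:56206278-56209950) lie close together and were not called, and *Psmb5* (chr14:55232644-55236851), on the same chromosome, was called. The 13 genes called higher lay on 8 chromosomes in all. Near-identical copies (at least 95% identity over at least 50% of the transcript) were found for 5 members, *Psma4*, *Psma5*, *Psmb3*, *Psmd2* and *Psme2*, and the values of these 5 are uncertain because reads could be split. None of the 8 copies had a row in the table, and no such copy was found for the other 36 members. Only the longest transcript of each annotated gene was searched, so copies outside the annotation were not looked for.

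The 4 lists reported here of genes that act around the proteasome gave 0 or 1 calls each against controls, where 7.19% of all genes were called higher. Nothing is read from counts this small, and a further list, of ubiquitin genes, is not reported. None of the 5 measured assembly factors of the core (*Pomp* and *Psmg1* to *Psmg4*) was called against controls, with log2 fold changes from -0.02 to 0.17. Of 5 other subunits and associated proteins 1 was called higher, the small lid subunit gene *Shfm1*, at 114, 116 and 100 in controls, 116, 113 and 110 in heterozygotes and 127, 128 and 136 in homozygotes. Homozygous libraries of *Shfm1* lay above all others (log2 fold change 0.24, limma adjusted p = 0.0224), and the call was lost without control library 3 or homozygous library 3 (log2 fold changes from 0.18). Among 11 genes that control proteasome transcription only *Nfe2l3* was called, at normalised values of 3.55, 3.41 and 3.14 in controls, 5.44, 3.09 and 4.04 in heterozygotes and 6.02, 7.36 and 5.27 in homozygotes (log2 fold change 0.79, limma adjusted p = 0.0246), a call that was lost without control library 2 or 3 or homozygous library 2. *Nfe2l1*, the main activator of subunit genes after proteasome inhibition, stood at 154 ± 6.39 in controls and 144 ± 15.2 in homozygotes (log2 fold change -0.10, limma adjusted p = 0.393), with overlapping libraries. Of 9 genes of antigen processing, in which proteasome products are used, 0 were called in any of the comparisons. With the length trend removed by exonic length, 0 of the 5 other subunits and associated proteins were called against controls.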

How the data were processed

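The authors deposited 1 table of normalised signal values for 14011 genes, which the methods and the submitters' processing notes place on NCBIM37 (TruSeq libraries, GAIIx sequencer), and the notes name CASAVA 1.8, cutadapt 1.6.1, RSEM 1.20, Bowtie2 0.12.7 (as written there) and limma without their order. The deposited signal values were whole reads plus 0.5, scaled to an effective library size that equalled total reads times edgeR's TMM factor, and 100% of values came out whole within 0.1 of a read. Total reads ran from 4294537 to 11629365 per library, so 1 read was worth 0.0901 to 0.231. Column names call the controls Het and the heterozygotes DH, and the assignment of groups was checked against the group averages in the study's supplementary table, where the averages and column means were equal, within 0.01% of the mean, for 787 of 787 genes in the heterozygous group and for 1998 of 1998 in both others.

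Values were analysed as log2(value + 0.5) with limma 3.58.1 in R 4.3.3, with 3 groups and 9 libraries in one fit, a trend of the variance with the mean, and p-values adjusted over all 14011 genes by Benjamini and Hochberg, and genes were called at an adjusted p under 0.05. A fold change on this scale understates that of genes with low values. edgeR 4.0.16 on the recovered reads called 2212 genes between homozygotes and controls, 1903 between homozygotes and heterozygotes and 21 between heterozygotes and controls. No p-value was computed for a list. Members and lists were chosen with earlier results of these data known. All members are named, with every library's value for those called, the cutting subunits, Psmb10, the activators and Psmf1; Psma8, Psmd8 and Nfe2l1 were singled out after their values were seen, and other genes are named where called, apart from Ctcf, the assembly factors, given as a list, and Emr1, given for its 0 reads. Libraries of a group differed beyond counting noise (chi-square of 3.22 to 7.15 for each degree of freedom). Alternatives were other pseudocounts, a filter on low values, other scalings, limma without the trend, voom, edgeR, only the groups compared, removal of the length trend by loess in each library, a replicate block, a stricter threshold and leaving out each library. The scripts were tested on simulated counts. Lengths came from GENCODE M1, promoters from RefSeq and copies from BLAST+ 2.17.0, with DESeq2 1.42.0 for size factors and Python 3.11.15. The list of ubiquitin genes is not reported here.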

Additional observations from a re-analysis of the deposited data

How the results depend on the processing

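No called member changed direction under any alternative run. The core median of heterozygotes against controls, which has no test, ran from -0.01 to 0.04 with 1 library left out. A count was taken as moved when it differed from the reported one by over 1.5 times, and a median, ratio or SD when it differed by more than 1 SD between replicates. By this measure 44 values moved and 242 did not, apart from leave-one-out fits (19 and 197). For homozygotes against controls (13 members called, 10 in the core, 3 in the regulatory particle), the counts were 4, 3 and 1 without the limma trend, where 4.17% of all genes were called higher in place of 7.19%. With only the 2 groups compared in the fit, 8 members and 1 regulatory gene were called (6.7% of all genes). With a replicate block the counts were 8 and 1 (5.79% of all genes), and at an adjusted p under 0.01 they were 3 members, 3 core genes and 0 regulatory genes. The share of all genes at this stricter threshold is not given here, so nothing is read from its counts. With the trend of exonic length removed 7 members and 5 core genes were called, with medians of 0.0903 and 0.128, and with protein-coding transcript length, added after seeing the data, 3, 2 and 1 were called, with medians of 0.0639 over the members, 0.0736 over the core and 0.0612 over the regulatory particle. Leaving out 1 library gave 3 to 12 members, 3 to 9 core genes and 0 to 3 regulatory genes, with medians of 0.11 to 0.16 over the members. The share of all genes called higher then ran from 3.73% to 7.12%. The 3 members were left without control library 3, where that share was lowest.

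For homozygotes against heterozygotes (6 members, all in the core), the filter on low values gave 10 members and 1 regulatory gene, voom gave 1 regulatory gene, and limma without the trend (3.86% of all genes, in place of 6.87%) and the stricter threshold each gave 2 members, both in the core. The replicate block gave 3 members, 3 of them in the core (5.7% of all genes). The length correction gave 3 members and 3 core genes, with medians of 0.0693 and 0.123, and by protein-coding transcript 3 members and 2 core genes, with medians of 0.0394 over the members, 0.0566 over the core and 0.0115 over the regulatory particle. Of all genes, 5.91% and 5.68% were called higher under these corrections. Leaving out 1 library gave 3 to 7 members, 3 to 5 core genes and 0 to 1 regulatory genes. The share of all genes called higher then ran from 3.68% to 6.81%. edgeR called 13, 7 and 0 members higher in the 3 comparisons, where 7.52%, 6.97% and 0.0999% of all genes were. The causes were not tested beyond what the construction of each alternative shows. Of the 13 calls against controls, and leaving aside the stricter threshold, Psmb4 was called in 21 of 21 alternatives, Psma7 and Psmd4 in 20, Psmb1 in 19, Psmb6 in 18 and Psma5 and Psmb7 in 8.

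The SD of log2 levels per kilobase over the core was 0.54, 0.55 and 0.54 in controls, heterozygotes and homozygotes by the longest transcript, and 0.56, 0.57 and 0.57 by the longest protein-coding transcript. Same-numbered libraries did not deviate together (correlations -0.14 to 0.13, and -0.13 to 0.18 between differently numbered ones). With 3 libraries per group this cannot show whether the pools were collected or processed as numbered sets. The fit with the replicate block is therefore given as an alternative. With 3 pools per group an exact permutation test cannot go below 0.10, and small differences such as those of the lid genes were not resolved. Low counts limit Psma8, at 7 reads in 1 library.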
